A study of Mus musculus with 6 samples.

Results

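The 10 genes followed here mark the vascular endothelium, the cell layer that lines blood vessels. They were measured in the E11.5 mouse optic fissure, the ventral groove of the optic cup, in FGF receptor mutants and in controls. The genes were the receptors Kdr, Flt1, Tek, Tie1 and Eng, the junction genes Pecam1, Cdh5 and Cldn5, and the surface proteins Emcn and Plvap. Members were all probe sets of the array table that the platform annotation assigns to 1 of these symbols and to no other gene, which gave 15 probe sets for the 10 genes, of 45037 probe sets and 18193 genes in all. The mutant samples carried Six3Cre+;Fgfr1fx/fx;Fgfr2fx/fx and the control samples Six3Cre-;Fgfr1fx/fx;Fgfr2fx/fx, both in C57BL/6J, so that controls had the same loxP-flanked receptor alleles without the Cre transgene. Each group had 3 Affymetrix arrays, and the numbers 8711, 9216 and 9266 in the titles each name 1 mutant and 1 control array. Tissue was taken by laser-assisted microdissection, and the labels do not say whether a sample was 1 embryo or a pool, so the p-values rest on a spread between samples that may be only technical. Six3Cre is used to recombine genes in the early eye field, and the labels do not say whether endothelial cells were recombined.

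Blood vessels reach the optic cup through the optic fissure, where the hyaloid artery enters the eye. Endothelial cells line these vessels and respond to VEGF ligands through Kdr, the main signalling receptor, and Flt1, which binds VEGF-A tightly and acts largely as a trap. Tek is the receptor of the angiopoietins and Tie1 its partner without a well-established ligand of its own, while Eng is a co-receptor for ligands of the BMP and TGF-beta family. Cells are held together by VE-cadherin (Cdh5) at adherens junctions, claudin-5 (Cldn5) at tight junctions and PECAM-1 at cell contacts. Emcn is a sialomucin of venous and capillary endothelium, and Plvap forms the diaphragms of fenestrae and caveolae.

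Many endothelial promoters are bound by ETS factors, whose DNA core is GGAA. RefSeq promoter windows (build GRCm38.p6, 250 bases before to 50 after the gene start) were on hand for 7 of the 10 genes, the others being Pecam1, Cdh5 and Plvap. The windows of Kdr (chr5:75978406-75978705, minus strand) and Eng (chr2:32646345-32646644, plus strand) are shown because these genes had the most negative log2 differences between the groups, and that of Cldn5 (chr16:18776597-18776896, plus strand) because it was the 1 window of the 7 with no GGAA. Capitals mark GGAA on either strand (TTCC on the strand printed).
Kdr: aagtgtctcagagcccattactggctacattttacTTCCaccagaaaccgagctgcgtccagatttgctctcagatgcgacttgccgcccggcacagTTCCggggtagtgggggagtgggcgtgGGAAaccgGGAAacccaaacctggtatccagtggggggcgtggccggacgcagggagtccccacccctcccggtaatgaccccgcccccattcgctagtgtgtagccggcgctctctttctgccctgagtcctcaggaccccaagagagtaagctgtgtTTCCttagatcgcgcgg
Eng: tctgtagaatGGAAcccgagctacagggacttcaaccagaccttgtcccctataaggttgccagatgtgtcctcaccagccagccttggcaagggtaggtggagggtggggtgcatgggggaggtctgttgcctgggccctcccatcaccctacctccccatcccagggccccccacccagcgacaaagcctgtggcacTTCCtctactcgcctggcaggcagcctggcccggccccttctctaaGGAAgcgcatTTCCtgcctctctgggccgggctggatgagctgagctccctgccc
Cldn5: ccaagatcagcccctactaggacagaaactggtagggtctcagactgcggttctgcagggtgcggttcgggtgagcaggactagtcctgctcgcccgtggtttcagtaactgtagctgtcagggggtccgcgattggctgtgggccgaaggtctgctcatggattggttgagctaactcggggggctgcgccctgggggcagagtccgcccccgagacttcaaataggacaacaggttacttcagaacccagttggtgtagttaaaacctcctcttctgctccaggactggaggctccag
The core occurred 5 times in the Kdr window and 4 times in the Eng window. It was present in 6 of the 7 windows, and in 96.0% of all 32851 promoter windows of this length, so its presence does not set these genes apart. A longer motif joining a forkhead and an ETS element, AACAGGAA, which contains the GGAA core, was found on either strand in 1 of the 7, that of Emcn, and in 2.65% of all windows.

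Arrays were not alike in quality. The deposited intensities had a 2% trimmed mean of 150 in every array, but the median was 18.1 in mutant 8711, against 28.7 to 34.6 in the other 5 arrays. The ratio of 3 prime to 5 prime signal of the Gapdh control probe sets was 93.6 in mutant 8711, against 4.26 to 15.0 in the others, and that of Actb 14.8, against 6.03 to 12.1. Of all 27022 probe sets tested, 38.3% had their lowest value in mutant 8711, and 26.4% of the 12282 genes tested, each by its brightest probe set. Among the 10 endothelial genes this array was the lowest of the 6 for 5 (Kdr, Flt1, Eng, Cldn5 and Plvap), and the lowest of the 3 mutants for 8. Control 9216 was the lowest of the 3 controls for 8 of the 10 genes. These lowest-of-3 patterns were not counted over all genes. Relative to the control mean, control 9216 was also the lowest control over all 12282 genes tested, by mean log2 value (-0.10) and by median (-0.08). Mutant 8711 was the lowest mutant by the mean (-0.09) but not by the median (0.09). The part of array quality in the results below was not tested. For the 8 of the 10 genes that were tested, the difference of the brightest probe set without mutant 8711 is given beside it. Of 10 optic cup markers 9 were measured. Their log2 differences, mutant minus control, were below 0 for 6 and above 0 for 3, with a median of -0.35. At an unadjusted limma p under 0.05 there were 3 lower and 3 higher, and 0 passed adjustment. Over all probe sets tested 2.55% were lower and 3.02% higher at that p, and over the 12282 genes tested 309 and 541. The optic cup homeobox gene Six6 averaged 601 ± 149 in the mutants and 1268 ± 53.1 in the controls (SD, n = 3 each), and Mitf, which directs pigment cell fate, 4582 ± 677 and 2404 ± 170 in the same order, so the tissue carried optic cup transcripts in both groups.

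The endothelial genes were dim. A probe set was tested when its mean log2 intensity over the 6 arrays reached the 40th percentile of all probe sets, which corresponds to an intensity of 15.1. The brightest probe set of a gene stands for it, and this probe set was tested for 8 of the 10 genes. Tie1 and Pecam1 fell under the filter level. Pecam1, a defining endothelial marker, had 1.5, 3.7 and 3.9 in mutant arrays 8711, 9216 and 9266, and 1.4, 2.6 and 12.5 in control arrays 8711, 9216 and 9266, under the filter level in every array. Tie1 had 12.2, 2.6 and 9.9 in the mutants and 25.7, 1.0 and 5.9 in the controls, above the filter level in control 8711 only. Neither gene was tested.

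No endothelial gene passed the test between mutants and controls. In limma with Benjamini-Hochberg adjustment over all 27022 probe sets, 0 of the 8 genes tested passed an adjusted p of 0.05, and over all probe sets the share was 0%. At an unadjusted p under 0.05 the count was also 0 of 8, where 5.57% of all probe sets passed in either direction. By the brightest probe set of each gene, 541 of the 12282 genes tested were higher and 309 lower at that p. Over all 10 genes the median log2 difference, mutant minus control, was -0.22, with 7 genes below 0 and 3 above, beside a median of 0.03 and 46.4% of genes below 0 over the 12282 genes tested (54.5% of the 27022 probe sets). Differences are on the scale of log2(intensity + 1.7) and understate changes of dim genes. Without mutant 8711 the median of the 10 genes was 0.06. With each array centred on its median, 35.3% of all genes tested were below 0, and 6 of the 10. In tissue pieces, fewer endothelial cells and less RNA per cell cannot be told apart.

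Among the receptors, Kdr and Eng had the lowest mutant values relative to controls. Kdr had intensities of 50.6, 166 and 130 in mutant arrays 8711, 9216 and 9266, and of 260, 127.6 and 244.2 in the control arrays in the same order. The groups overlapped, since control 9216 lay below both mutant 9216 and mutant 9266. The means were 116 ± 59.0 in the mutants and 211 ± 72.3 in the controls (SD, n = 3 each), a log2 difference of -0.95 (SE 0.51, 95% interval -2.16 to 0.26, limma adjusted p = 0.852). Without mutant 8711 it was -0.45.

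Eng had intensities of 14.5, 28.7 and 49.6 in the mutants, and of 67.1, 53.3 and 50.4 in the controls. Every mutant value lay below every control value, but mutant 9266 and control 9266 differed by little. The mutant 8711 value lay under the filter level of 15.1. The means were 30.9 ± 17.7 in the mutants and 56.9 ± 8.92 in the controls (SD, n = 3 each), a log2 difference of -0.99 (SE 0.46, 95% interval -2.09 to 0.11, limma adjusted p = 0.852). It was -0.56 without mutant 8711. A dimmer Eng probe set, also tested, had 24.9, 33.4 and 18.0 in the mutants and 56.0, 21.0 and 17.1 in the controls, a difference of -0.14 (SE 0.51), with overlapping groups. Thus 1 of the 10 genes had groups that did not overlap with the mutants lower, where 6.39% of all probe sets tested had the same pattern.

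The brightest probe sets of Flt1 and Tek had differences close to 0, with wide intervals. Flt1 had 18.3, 37.6 and 68.4 in the mutants and 43.9, 31.2 and 35.9 in the controls, so the mutants held both the lowest and the highest value. Its log2 difference was -0.01 (SE 0.49), with a 95% interval from -1.18 to 1.16, and 0.45 without mutant 8711. A second tested Flt1 probe set had 21.4, 38.8 and 37.2 in the mutants and 44.3, 34.9 and 41.8 in the controls, a difference of -0.34 (SE 0.35), and -0.08 without mutant 8711. The remaining pair of Flt1 probe sets, under the filter level, had differences of -1.10 and -0.46 from means of 8.03 and 7.97 in the mutants and 16.5 and 13.1 in the controls. Some Flt1 transcripts encode a soluble receptor, and which transcript each probe set reads was not analysed here. Tek had 28.4, 36.8 and 56.4 in the mutants and 52.6, 27.9 and 39.9 in the controls, with overlapping groups. Its difference was 0.0033 (SE 0.39, 95% interval -0.93 to 0.94), and 0.22 without mutant 8711.

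**Figure D1:**
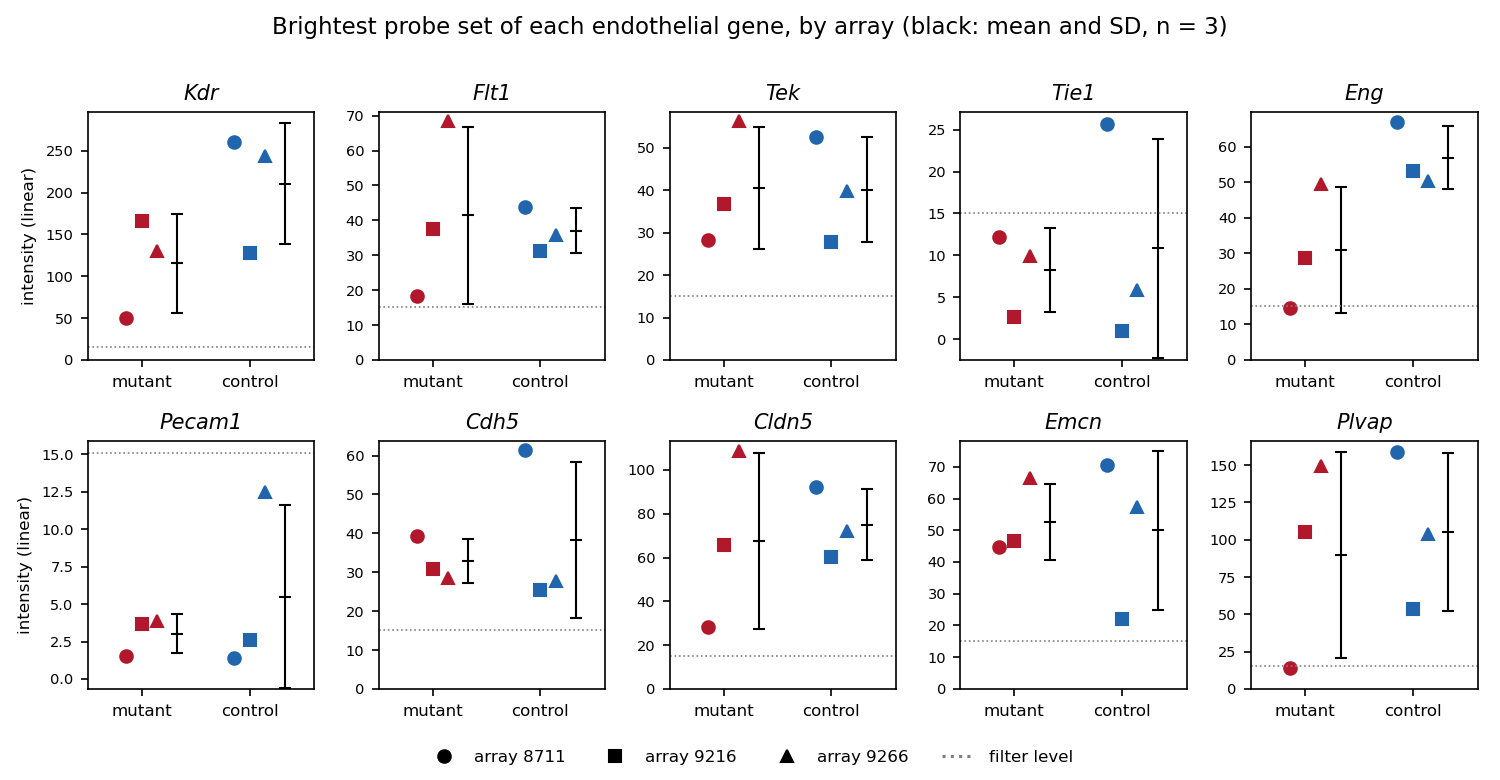
Linear intensity of the brightest probe set of each of the 10 endothelial genes in 3 FGFR mutant (red) and 3 control (blue) arrays. Symbols give the array number, black bars the mean and SD of 3 arrays, and the dotted line the filter level of 15.1. Only Eng has all mutant values below all control values, and mutant 8711 is the lowest array for Kdr, Flt1, Eng, Cldn5 and Plvap.

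The junction genes did not pass the test either. Cldn5 had 28.3, 65.8 and 108.5 in mutant arrays 8711, 9216 and 9266, and 92.3, 60.4 and 72.3 in the control arrays in the same order. All 3 control values lay inside the mutant range. The means were 67.5 ± 40.1 in the mutants and 75.0 ± 16.1 in the controls (SD, n = 3 each), a log2 difference of -0.32 (SE 0.50, 95% interval -1.51 to 0.87), and 0.19 without mutant 8711. Cdh5 had 39.2, 30.7 and 28.5 in the mutants and 61.4, 25.5 and 27.8 in the controls, and here all 3 mutant values lay inside the control range. Its difference was -0.11 (SE 0.42, 95% interval -1.10 to 0.87), with -0.24 without mutant 8711 and 0.27 without control 8711, the array with the highest value. A second Cdh5 probe set, under the filter level, had 6.6, 8.0 and 12.8 in the mutants and 1.8, 3.8 and 3.5 in the controls, above every control but too dim to be tested. Higher mutant values without overlap occurred in 7.08% of the probe sets tested.

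The surface proteins varied widely within groups. Plvap had 14.1, 105.5 and 149.7 in the mutants and 158.8, 53.3 and 103.7 in the controls. Its mutant 8711 value lay under the filter level, while the other mutants lay within the control range. The means were 89.8 ± 69.2 in the mutants and 105 ± 52.8 in the controls (SD, n = 3 each), a log2 difference of -0.62 with the widest interval of the tested members, from -2.74 to 1.50 (SE 0.89). Without mutant 8711 the difference was 0.38. Emcn had 44.7, 46.6 and 66.5 in the mutants and 70.6, 22.1 and 57.4 in the controls, with all mutant values inside the control range. Its difference was 0.20 (SE 0.48, 95% interval -0.93 to 1.33), with 0.30 without mutant 8711 and -0.29 without control 9216.

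**Figure D2:**
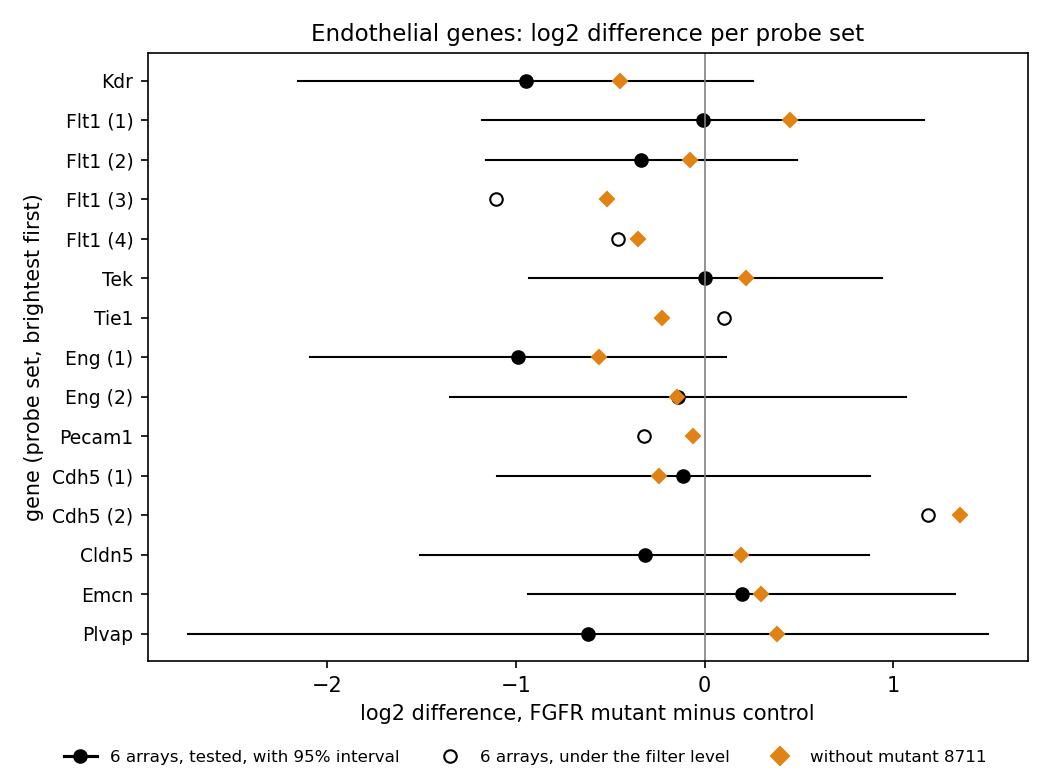
Log2 difference, FGFR mutant minus control, for each of the 15 probe sets of the 10 endothelial genes, brightest first within a gene. Black points are from 6 arrays with 95% intervals where tested, open points lie under the filter level, and orange diamonds leave out mutant 8711. Every interval includes 0, and the diamonds for Kdr and the brightest Eng probe set stay below 0 while those for Plvap and Cldn5 lie above it.

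Only Kdr and Eng kept their direction under all alternatives run. Under 16 alternative settings Kdr ranged from -1.29 to -0.26 and Eng from -1.39 to -0.44, with no change of sign. Changing the filter or variance model, or adding the title number as a block, left each log2 difference unchanged. Those settings could therefore not change a sign. The remaining settings reused the same arrays, and Kdr and Eng had the most negative differences to begin with. The ranges describe the processing and are not a separate test of direction. Adjusted p ranged from 0.262 to 0.999 for Kdr and from 0.209 to 0.999 for Eng. The other 8 genes each changed sign under at least 1 setting. Plvap ranged from -1.25 to 0.74 and Cldn5 from -0.75 to 0.35.

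The level of the endothelial genes as a group differed between arrays of the same genotype. Relative to the control mean, the mean log2 value of the 10 genes was -0.91, -0.25 and 0.25 in mutant arrays 8711, 9216 and 9266, and 0.46, -0.60 and 0.14 in the control arrays in the same order. The ranges of mutants and controls overlapped, with mutant 8711 lowest and control 8711 highest. Over the 6 arrays Pearson's r was above 0 in 27 of 28 pairs of the 8 tested genes, with a median of 0.59, and of 0.54 without mutant 8711. These values share arrays and scaling and are given as a description. Cldn5 and Plvap had r = 0.97, and Cldn5 and Flt1 0.96. Cdh5 had r from -0.07 (Flt1) to 0.51 (Emcn), and from 0.15 to 0.66 without mutant 8711. Kdr and Flt1 had 0.60, and -0.20 without mutant 8711.

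Among 12274 other genes tested, the 8 whose log2 values followed the mean of these 8 genes most closely were Gli1, Tgif2, Glis2, Rdm1, Clec16a, Hif3a, Ubr2 and Plxnd1. Their r over the 6 arrays ran from 0.989 to 0.997, and without mutant 8711 from 0.970 to 0.996. They were picked as the highest of many values over few arrays, and 11.7% of all these genes had r over 0.8. Gli1, a transcription factor of hedgehog signalling, had 10.7, 43.8 and 68.7 in the mutants and 85.6, 27.1 and 52.9 in the controls. Plxnd1, a semaphorin receptor of endothelial cells, had 36.2, 64.6 and 104.9 in the mutants and 106, 56.4 and 79.6 in the controls. Both had their lowest value in mutant 8711 and their highest in control 8711, as Kdr and Plvap did. Of 30 other endothelial markers tested, 6 (20.0%) had r over 0.8, and of 21 endothelial transcription factors 0. Among the other lists the share was 18.8% for ligands and co-receptors, and 16.7% each for pericyte and mural markers and for macrophage markers. It was 11.1% for optic cup markers and 0% for junction partners, erythroid and mesenchyme markers.

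The further endothelial genes had differences in both directions, from -0.71 (Notch4) to 1.10 (Nrp2) among those tested. Sele, too dim to be tested, had 1.56. Of 34 such endothelial markers, 12 had log2 differences below 0 and 22 above, with a median of 0.07, and 30 were tested. None passed over all probe sets, and at an unadjusted p under 0.05 there was 1 higher gene, Nrp2, and 0 lower. The shares over all probe sets were 3.02% for higher and 2.55% for lower values, and over the 12282 genes tested the counts were 541 and 309. Cd34, a sialomucin of endothelial and stem cells, had 81.8, 158.2 and 138.8 in the mutants and 167.5, 81.2 and 136.5 in the controls. Its log2 difference was -0.02 (SE 0.39), and 0.27 without mutant 8711. The genes with the smallest p after Nrp2 were Egfl7, a secreted endothelial factor, at -0.50 (SE 0.37), Myct1 at -0.56 (SE 0.43) and Icam2, an adhesion molecule, at -0.62 (SE 0.47). Without mutant 8711 Egfl7 had -0.30, Myct1 -0.38 and Icam2 -0.27. Dimmer tested probe sets of Egfl7 had -0.45, -0.19 and -0.05, and one of Myct1 had 0.27. Cd34 was chosen after its values were seen.

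Of 22 endothelial transcription factors, 16 were above 0 and 6 below, with a median of 0.40. Of the 21 tested, 0 passed adjustment, and the unadjusted p was under 0.05 for 1 gene, Hey2, with higher mutant values. At that p 3.02% of all probe sets were higher, and 541 of the 12282 genes tested. Hey2, a target of Notch signalling in arteries, had 39.2, 46.9 and 74.1 in the mutants and 18.8, 24.5 and 23.3 in the controls, a difference of 1.16 (SE 0.35, limma adjusted p = 0.709). Hey1, Elk3 and Sox17 had 0.63, 0.54 and 0.70. Dimmer tested Elk3 probe sets had 0.34 and -0.78, and a dimmer Sox17 probe set, under the filter level, had -0.14. Hey1 and Sox17 had all mutant values above all control values, as did 7.08% of all probe sets tested. Several of these factors are also expressed outside vessels.

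None of the ligands and co-receptors passed the test, and those with the smallest p had higher values in the mutants. The list also held Apln, Dll4, Efnb2 and Ephb4, which are not ligands or co-receptors of the genes followed here. Of 20 on the list, 11 had differences above 0 and 9 below, with a median of 0.12, and of the 16 tested 0 passed adjustment. At an unadjusted p under 0.05 there were 3 higher and 0 lower, beside 3.02% and 2.55% of all probe sets, and 541 and 309 of the 12282 genes tested. The 3 were Nrp2, a neuropilin that binds VEGF-C and semaphorins, Pgf, a ligand of Flt1, and Angpt1, the activating ligand of Tek. Nrp2 had 114.4, 141.1 and 227.2 in the mutants and 80.5, 55.4 and 79.9 in the controls. Its difference was 1.10 (SE 0.34, limma adjusted p = 0.729), and the dimmer Nrp2 probe sets had 0.56, 0.84 and 1.66.

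Pgf had 57.6, 57.6 and 55.4 in the mutants and 37.8, 24.2 and 14.5 in the controls, the mutants lying close together above all controls. Its difference was 1.20 (SE 0.39, limma adjusted p = 0.773). Angpt1 had 61.6, 77.9 and 93.1 in the mutants and 40.2, 51.0 and 21.6 in the controls, with no overlap. Its difference was 1.07 (SE 0.39, limma adjusted p = 0.852). Of all probe sets tested, 7.08% had every mutant value above every control value, as Nrp2, Pgf and Angpt1 did. A second Angpt1 probe set, under the filter level in every array, had 0.18. Angpt2, which opposes Angpt1 at Tek in many settings, had 44.9, 37.9 and 53.1 in the mutants and 41.5, 33.9 and 28.5 in the controls, with overlapping groups. Its difference was 0.37 (SE 0.31).

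Vegfa, the main ligand of Kdr and Flt1, had 132, 107.7 and 142 in the mutants and 118.9, 82.0 and 91.5 in the controls. Mutant 9216 lay below control 8711, and the difference was 0.39 (SE 0.27, limma adjusted p = 0.852). Vegfc, a ligand of Flt4, was higher in every mutant than in any control, with a difference of 0.50 (SE 0.26), but its dimmer probe sets had 0.31 and 0.07. Vegfb, a ligand of Flt1, had 50.7, 127 and 321.5 in the mutants and 277.7, 135 and 208.6 in the controls, with mutant values on both sides of the controls. Tgfb2, a ligand of TGF-beta receptors, had 88.3 in mutant 8711, against 860.1 and 982.3 in the other mutants and 735.8 to 1224.1 in the controls. Ephb4, a receptor of venous endothelium, had 1.8 in mutant 8711, against 30.2 and 52.5 in the other mutants and 35.4 to 50.7 in the controls. For both genes mutant 8711 stood apart from the other 5 arrays, as it did for Plvap. Tgfb2, Ephb4, Vegfa, Vegfb and Angpt2 were chosen after their values were seen.

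**Figure D3:**
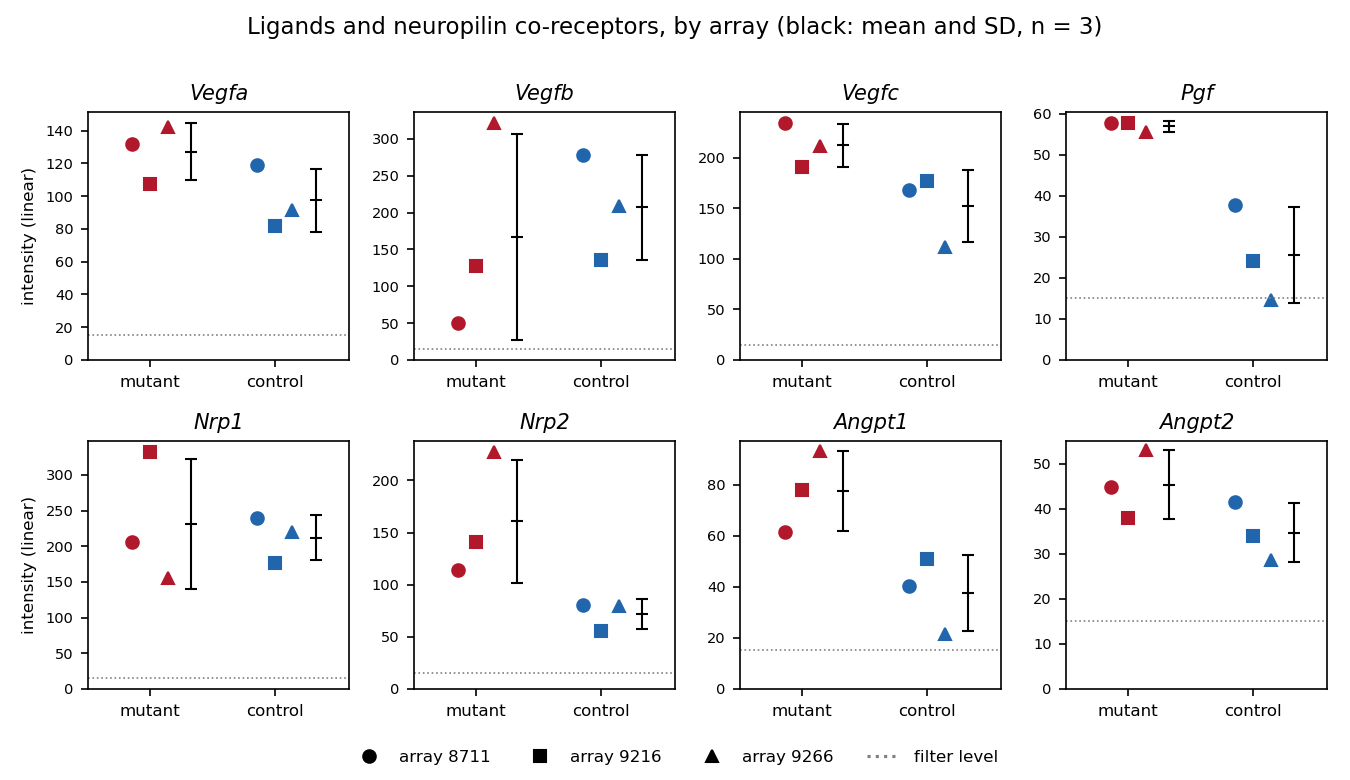
Linear intensity of 8 genes chosen from the list of 20 ligands and co-receptors, in 3 FGFR mutant (red) and 3 control (blue) arrays. Mean and SD are in black and the filter level is dotted. Pgf, Nrp2, Angpt1 and Vegfc have every mutant value above every control value, as 7.08% of all probe sets tested do. Vegfb has its lowest value in mutant 8711. Listed genes not shown had log2 differences in both directions, from -1.23 (Ephb4) to 1.17 (Vegfd, under the filter level).

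Partners at endothelial junctions, most of which other epithelia also use, had 14 genes above 0 and 7 below of 21 on the array, with a median of 0.16. Of 19 tested, 0 passed adjustment. At an unadjusted p under 0.05, 2 were higher in the mutants, beside 3.02% of all probe sets and 541 of the 12282 genes tested. The 2 were Cgnl1 and Vcl. Cgnl1, a cingulin-like protein of junctions, had 347 ± 16.1 in the mutants and 224 ± 27.0 in the controls (SD, n = 3 each), a difference of 0.63 (SE 0.20). Vcl, which encodes vinculin, had a difference of 0.63 (SE 0.21). A second tested Cgnl1 probe set, dimmer, had -0.17. F11r, the junction protein JAM-A, had 59.7, 64.8 and 48.4 in the mutants and 143.1, 58.6 and 140.7 in the controls, a difference of -0.87 (SE 0.41) with overlapping groups. Lsr, a protein of tricellular junctions, had -1.39 (SE 0.71). A second probe set of F11r and of Lsr, both under the filter level, had 0.77 and 0.17.

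Markers of neighbouring cell types were read beside the endothelial genes. Of 14 pericyte and mural markers 6 were tested, with a median of 0.09 over all 14 and a summed intensity of 925 to 1698 in the mutants and 703 to 1112 in the controls. Acta2, smooth muscle actin, had 293.9, 310.2 and 541.6 in the mutants and 152.6, 192.8 and 123.8 in the controls, a difference of 1.24 (SE 0.32, limma adjusted p = 0.574). Dimmer Acta2 probe sets, under the filter level, had 0.15 and -0.36. The others of smallest p, Cspg4, Des and Notch3, had 0.43, 0.44 and -0.33 (0.03 for Notch3 without mutant 8711). A dimmer tested Notch3 probe set had -0.97, and -0.43 without mutant 8711. Of 11 erythroid markers 9 were above 0, with a median of 0.28, and Hbb-bh1, an embryonic globin, had 0.48 (SE 0.19). Tfrc, Klf1 and Hba-x had -0.42, 0.36 and 0.40. The summed intensity of the erythroid list was 17946 to 19731 in the mutants and 14474 to 19202 in the controls. That of the 10 endothelial genes was 252 to 671 in the mutants and 405 to 834 in the controls.

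Of 18 macrophage markers 14 were above 0, with a median of 0.32, and those with the smallest p were Lyz1 (1.19), Csf1r (0.49), C1qb (0.85, and 0.51 without mutant 8711) and Tyrobp (0.95). Of 13 mesenchyme markers 12 were above 0, with a median of 0.58, and those with the smallest p were Twist1 (1.73), Prrx1 (1.0), Lum (0.96) and Postn (1.05). No gene of these lists passed adjustment. The unadjusted p was under 0.05 for 4 macrophage and 4 mesenchyme markers, each with higher mutant values. At that p 3.02% of all probe sets tested were higher, and 541 of the 12282 genes tested. Control 9216 was the lowest of the 6 arrays for the mean of the macrophage, mesenchyme and other endothelial lists, at -0.52, -0.49 and -0.39 from the mean of the controls. It was also lowest for endothelial transcription factors (-0.30), junction partners (-0.27) and erythroid markers (-0.09). For the mean of all genes tested it was lowest too, at -0.10, against -0.09 in mutant 8711. Without control 9216 the median was -0.50 for the 10 endothelial genes and -0.15 for other endothelial markers. It was 0.18 for the macrophage and 0.19 for the mesenchyme list. The summed intensity of the mesenchyme list was 9450 to 11008 in the mutants and 8307 to 10861 in the controls, and that of the macrophage list 3485 to 4324 in the mutants and 2242 to 3225 in the controls. Without mutant 8711 the medians were 0.10 for other endothelial markers, 0.40 for endothelial transcription factors, 0.20 for ligands and co-receptors and 0.0062 for junction partners. They were 0.19 for the mural, 0.14 for the erythroid, 0.34 for the macrophage and 0.81 for the mesenchyme list. The part of these neighbouring cells in the endothelial values was not tested.

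**Figure D4:**
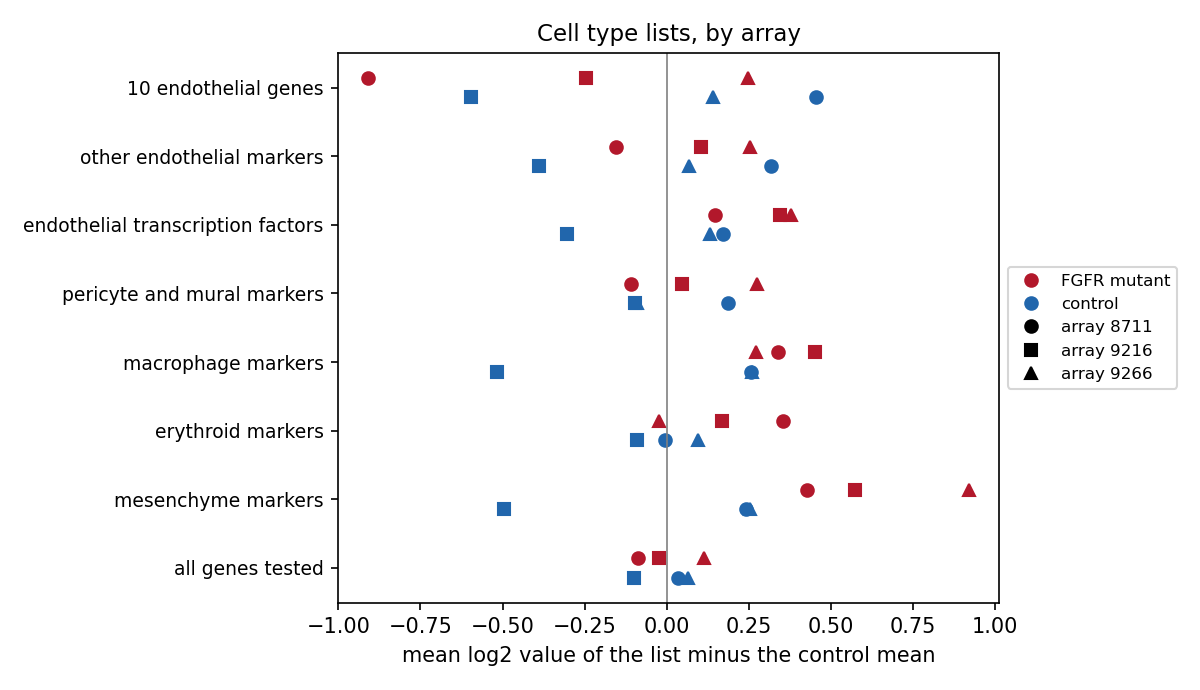
Mean log2 value of each gene list in each array, relative to the control mean, for 3 FGFR mutant (red) and 3 control (blue) arrays, with symbols for the array number. The 10 endothelial genes spread from -0.91 in mutant 8711 to 0.46 in control 8711 with mixed groups. Control 9216 is lowest for the other endothelial, transcription factor, macrophage, erythroid and mesenchyme lists, and for all genes tested.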

How the data were processed

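The arrays measured RNA of 3 FGFR mutant and 3 control samples, grouped by genotype. Per the labels, RNA came from a Trizol extraction and 10 ug was labelled with biotin. The submitters' processing notes name MAS5, without version or settings. The authors deposited 1 linear intensity for each probe set and array, already scaled to a 2% trimmed mean of 150, and these were used without further normalization. Detection calls were not used here.

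Of 45101 probe sets, 64 manufacturer controls were left out, 34945 had 1 gene symbol and 932 several. Gene identifiers matched the reference table for 34754, with 0 symbols updated. Values were put on a log2 scale after adding 1.7, their 10th percentile, and 27022 probe sets at or above the 40th percentile of mean log2 value were tested with limma 3.58.1 (lmFit, eBayes with trend and robust, statmod 1.5.0, R 4.3.3) and Benjamini-Hochberg adjustment. Figures used Python 3.11.15 and matplotlib 3.10.9. Precision is limited by the number of arrays, 3 per group.

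The members and lists were chosen with earlier results of these data known. Named genes are all members, up to 4 per list with the smallest p, and the 8 genes most alike in r.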

Additional observations from a re-analysis of the deposited data

How the results depend on the processing

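Under the 16 alternatives (other added values, normalizations and filters, the replicate block, another variance model, array weights, each array left out, and both 8711 arrays left out, the last chosen after seeing the data), 0 endothelial genes passed, also when a gene's probe sets were averaged. Over all probe sets 184 passed with array weights (100 higher and 84 lower). Only 1, Xist, lower, passed without mutant 8711 and without both 8711 arrays. Under the other alternatives 0 passed. The array weights were 0.151 for mutant 8711 and 5.98 for control 8711, against 0.625 to 1.59 for the other arrays. That fit therefore rested largely on 1 control array. With 1 array left out the count was 0 to 1. The median log2 difference of the 10 genes, -0.22, was -0.50 to 0.06 with 1 array left out and 0.39 without both 8711 arrays. The cause of these differences was not tested. Quantile normalization gave -0.05 and 5 genes below 0. Median centring gave -0.10, where the median of all genes tested was 0.14, against 0.03 as deposited.

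With the title number as a replicate block 0 probe sets and 0 endothelial genes passed. Deviations of same-numbered arrays from their group means correlated at 0.05 (8711), 0.48 (9216) and -0.11 (9266), and mutant 8711 correlated best with control 9266 (0.35), so not every pair deviated together. The labels do not say what the numbers mark. Signal under the filter level limits Tie1 and Pecam1.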
